A study of Homo sapiens with 15 samples.

Results

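Knockdown of B3GNT3 was compared between AsPC-1 and Capan-1, 2 human cell lines from pancreatic ductal adenocarcinoma, with RNA sequencing of 12 of the 15 libraries of the series. These 12 were chosen by their labels: 3 libraries each of AsPC-1 with a control siRNA (siNC), AsPC-1 with an siRNA against B3GNT3 (siB3GNT3), Capan-1 with siNC and Capan-1 with siB3GNT3. The other 3 are AsPC-1 libraries with an siRNA against B4GALT5. Each group is a single cell line treated with siRNA, with no dose or time in the labels. A label field of the Capan-1 libraries spells the line as Capable-1, while their titles say Capan-1. The series title concerns MHC class I on tumour cells and CD8 T cells; the measurement here is mRNA.

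B3GNT3 encodes a Golgi N-acetylglucosaminyltransferase that adds N-acetylglucosamine to core 1 O-glycans, the sugar chains of mucin-type glycoproteins. B4GALT5 encodes a galactosyltransferase that makes lactosylceramide. Interferons bind cell surface receptors and, through JAK kinases and STAT factors, switch on interferon-stimulated genes, many of them antiviral; RNA sensors such as IFIH1 can start that response. Amino acid shortage and other stresses act through the kinases of the integrated stress response on the transcription factor ATF4, whose targets include DDIT3, TRIB3 and SESN2. Unfolded protein in the endoplasmic reticulum (ER) induces chaperones such as HSPA5.

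Here a response is the difference in log2(FPKM + 1) between siB3GNT3 and siNC within a line, and a response difference is the AsPC-1 response minus the Capan-1 response. FPKM scale fragment counts by transcript length and by the mapped total of the library. Adding 1 before the logarithm holds the response of a gene near 0 in a line where the gene is silent, so silent genes are described apart from genes expressed in both lines. A gene was called when limma's p-value, adjusted over all genes tested, was under 0.05. The labels do not state whether libraries of 1 group stem from different cultures, and these p-values measure the spread between libraries only.

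Promoters of genes that stand for the main groups below are shown from RefSeq (GRCh38.p14), from 250 bases before to 50 bases after each start site, in the direction of the gene. Capitals mark matches, on either strand, to the core of the interferon-stimulated response element (GAAANNGAAA) in IFI27, to the first part of the element bound by C/EBP and ATF factors (TGATGNAA) in ATF3, to the ER stress element (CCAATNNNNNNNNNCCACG) in HSPA5 and CALR, and to an NF-kB site (GGGANNTTCC) in IL6. IFI27 lies at chr14:94110486-94110785, plus strand, ATF3 at chr1:212565157-212565456, plus strand, HSPA5 at chr9:125241294-125241593, minus strand, CALR at chr19:12938359-12938658, plus strand and IL6 at chr7:22726950-22727249, plus strand.

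IFI27: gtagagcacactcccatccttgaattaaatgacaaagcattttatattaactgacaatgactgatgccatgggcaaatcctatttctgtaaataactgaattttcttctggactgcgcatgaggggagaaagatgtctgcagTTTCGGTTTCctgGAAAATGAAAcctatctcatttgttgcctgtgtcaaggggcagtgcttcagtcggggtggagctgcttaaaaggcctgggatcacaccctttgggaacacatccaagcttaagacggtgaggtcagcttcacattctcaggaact
ATF3: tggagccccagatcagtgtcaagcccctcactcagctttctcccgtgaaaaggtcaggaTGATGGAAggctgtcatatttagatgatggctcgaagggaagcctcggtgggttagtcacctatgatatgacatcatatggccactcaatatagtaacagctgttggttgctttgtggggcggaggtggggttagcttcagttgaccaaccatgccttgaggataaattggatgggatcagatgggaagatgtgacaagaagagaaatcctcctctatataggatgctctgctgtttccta
HSPA5: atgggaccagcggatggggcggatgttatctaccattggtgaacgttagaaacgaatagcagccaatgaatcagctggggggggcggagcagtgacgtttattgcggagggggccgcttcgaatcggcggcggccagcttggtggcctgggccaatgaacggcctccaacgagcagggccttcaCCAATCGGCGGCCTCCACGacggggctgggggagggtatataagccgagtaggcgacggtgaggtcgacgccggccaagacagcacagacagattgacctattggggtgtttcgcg
CALR: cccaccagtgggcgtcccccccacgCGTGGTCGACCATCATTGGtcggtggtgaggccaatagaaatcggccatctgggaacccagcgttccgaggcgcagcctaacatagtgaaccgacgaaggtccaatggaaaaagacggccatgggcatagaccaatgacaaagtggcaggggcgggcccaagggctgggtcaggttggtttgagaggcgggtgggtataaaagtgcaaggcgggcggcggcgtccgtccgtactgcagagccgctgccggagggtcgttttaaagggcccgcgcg
IL6: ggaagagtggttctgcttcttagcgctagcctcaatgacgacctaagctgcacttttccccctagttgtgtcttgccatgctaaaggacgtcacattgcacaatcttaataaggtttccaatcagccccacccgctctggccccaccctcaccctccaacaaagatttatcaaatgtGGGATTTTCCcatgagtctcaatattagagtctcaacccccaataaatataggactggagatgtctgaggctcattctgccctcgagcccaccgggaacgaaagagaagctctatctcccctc

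The matches start 108 and 95 bases before the start site in IFI27, 191 in ATF3, 66 in HSPA5, 225 in CALR and 73 in IL6. Over all 27305 windows of the table, 3.65% hold the interferon element, 3.67% the C/EBP and ATF element, 0.0806% the ER stress element and 1.63% the NF-kB site. Among list genes with a window, the interferon element is in 22 of 33 interferon-stimulated genes, the ER stress element in 6 of 21 ER chaperone genes (CALR, CANX, CRELD2, HSP90B1, HSPA5 and XBP1), the C/EBP and ATF element in 6 of 23 ATF4 genes and the NF-kB site in 5 of 15 NF-kB genes. A sterol element (TCACNCCAC) is in 1.15% of all windows and in 1 of 18 cholesterol genes with a window, SREBF2. These are matches of letters in a window and say nothing of binding.

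B3GNT3 (chromosome 19, 17794828 to 17813082, plus strand, GRCh38) was far lower in 5 of the 6 libraries labelled as its knockdown. AsPC-1 siNC libraries had 22.5, 23.8 and 23.3 FPKM and siB3GNT3 replicates 1 and 2 had 2.53 and 2.5. The library labelled AsPC-1 siB3GNT3 replicate 3 had 24.2 FPKM, the level of the controls. Capan-1 libraries had 13.3, 13.2 and 13.7 FPKM with siNC and 1.32, 1.67 and 1.84 with siB3GNT3. Over all genes this AsPC-1 library lay 0.140 to 0.149 (root mean square log2 difference) from the siNC libraries and 0.451 and 0.463 from its own group, while siNC libraries of this line lay 0.142 to 0.144 apart. Its values go against its label, so it is called the doubted library below, and each comparison was made with all 12 libraries as labelled and with it set apart. Setting it apart rests on the target gene, which makes that fit circular for B3GNT3 and means that its p-values describe the kept libraries. Values for "AsPC-1 siB3GNT3" below are replicates 1 and 2 unless the doubted library is named.

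The Capan-1 knockdown libraries were not alike either. Capan-1 siB3GNT3 replicate 3 lay 0.313 and 0.271 from replicates 1 and 2, which lay 0.180 apart, and 0.335 to 0.343 from siNC, where replicates 1 and 2 lay 0.376 to 0.441. Between 10339 and 11531 genes per library reached 1 FPKM. Mitochondrially encoded mRNAs took 23.8% to 24.8% of FPKM in AsPC-1 with siNC, 20.1% and 19.7% in the kept AsPC-1 knockdown libraries and 13.6% to 14.8% in Capan-1. The absolute depth is unknown. The FPKM worth of 1 read was estimated at 0.971 to 1.05 times that of the first AsPC-1 siNC library. This estimate was sought only within a fixed window around equal depth, so it could not have shown a large difference in depth. Epithelial markers EPCAM, KRT8, KRT18 and KRT19 were expressed in each library, whereas CDH1 was only 0.109 to 0.561 FPKM in AsPC-1 against 17.4 to 25.5 in Capan-1. PTPRC, CD3E, VWF and DCN reached at most 0.159 FPKM in any library, as did the acinar and endocrine markers PRSS1, CPA1 and GCG. Other markers of blood and stromal cells were present in Capan-1: COL1A1 at 46.3 to 77.6 FPKM, CD14 at 2.67 to 5.44 and PECAM1 at 1 to 1.63. In AsPC-1 they reached at most 0.463, 0.14 and 0.0767. COL3A1 was 0.247 to 0.498 FPKM in AsPC-1 and at most 0.0987 in Capan-1.

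With all libraries as labelled, the response differed between lines for 1022 of 12134 genes (8.42%), of which 568 were higher in AsPC-1 (4.68%), 454 lower (3.74%) and 157 differed at least 2-fold (1.29%). In the same fit the AsPC-1 response was called for 0 genes (0%) and had an unadjusted p under 0.05 for 3804. The Capan-1 response was called for 2953 (24.3%), with 1640 up (13.5%), 1313 down (10.8%) and 201 at least 2-fold (1.66%). Without Capan-1 siB3GNT3 replicate 3 the number of differing genes was 1938, and without any other library than this or the doubted one it was 501 to 653.

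With the doubted library set apart, 4316 of 12113 genes differed in response (35.6%), 2476 higher (20.4%) and 1840 lower (15.2%) in AsPC-1, and 402 at least 2-fold (3.32%). All 1022 genes called as labelled were called again. The AsPC-1 response was then called for 5833 genes (48.2%; 3553 up, 29.3%, and 2280 down, 18.8%), with 429 at least 2-fold (3.54%). For Capan-1 it was 5062 (41.8%; 2822 up, 23.3%, and 2240 down, 18.5%), with 214 at least 2-fold (1.77%). The Capan-1 libraries were the same in both fits, and this count rose because the spread was estimated over both lines together. With each line fitted apart the response was called for 3786 genes in Capan-1 (2152 up) and 6533 in AsPC-1 (3855 up). Calls for Capan-1 below are those of the fit of both lines. The balance of directions depended on scaling: with median-ratio scaling 1969 of 4327 differing genes were higher in AsPC-1, and 2854 of 5775 AsPC-1 responses were up. The median response difference of all genes was 0.03 as deposited and -0.03 with that scaling. Counts within a group of genes are read beside these shares.

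Most genes tested, and so most differences, lay among genes that both lines express. Their share that differed was close to the 35.6% of all genes tested. Taking a mean of at least 1 FPKM as expressed and under 0.1 as silent, 9924 tested genes were expressed in both lines and 3666 of them differed in response (36.9%; 2227 higher, 22.4%, and 1439 lower, 14.5%, in AsPC-1), 759 of them also as labelled. Another 634 genes were silent in AsPC-1 and expressed in Capan-1, of which 212 (33.4%) differed, 161 also as labelled. Only 108 were expressed in AsPC-1 and silent in Capan-1, of which 56 (51.9%) differed, 1 of them as labelled. Genes low but not silent in one line numbered 864 (low in AsPC-1, 209 or 24.2% differed) and 452 (low in Capan-1, 140 or 31% differed). A further 131 genes were under the expressed level in both, and 74 genes that reached 1 FPKM in the kept AsPC-1 knockdown libraries alone could not pass the filter of 3 libraries.

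Among genes expressed in both lines, the AsPC-1 response was called for 53% (32% up, 21% down) and the Capan-1 response for 43% (22.5% up, 20.5% down). Across these 9924 genes the responses of the lines, which share no library, had a Pearson r of 0.425 and a Spearman rho of 0.40; genes are not independent replicates. Of genes called up, 1265 were up in both lines, 39.8% of the 3180 in AsPC-1 and 56.7% of the 2230 in Capan-1. Called down in both were 763, 36.6% of 2082 and 37.5% of 2033. Responses were called in the same direction with no call on the difference for 1449 genes (902 up, 547 down). A difference with a call in AsPC-1 alone held for 962 genes up and 724 down, and with a call in Capan-1 alone for 311 up and 461 down. Opposite responses, called in each line, were found for 357 genes up in AsPC-1 and down in Capan-1 and for 167 genes the other way. Without Capan-1 siB3GNT3 replicate 3 these were 611 and 341, and without AsPC-1 siB3GNT3 replicate 2 the second count was 111. A larger response in the same direction was called for 486 genes in AsPC-1 and 93 in Capan-1.

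**Figure D1:**
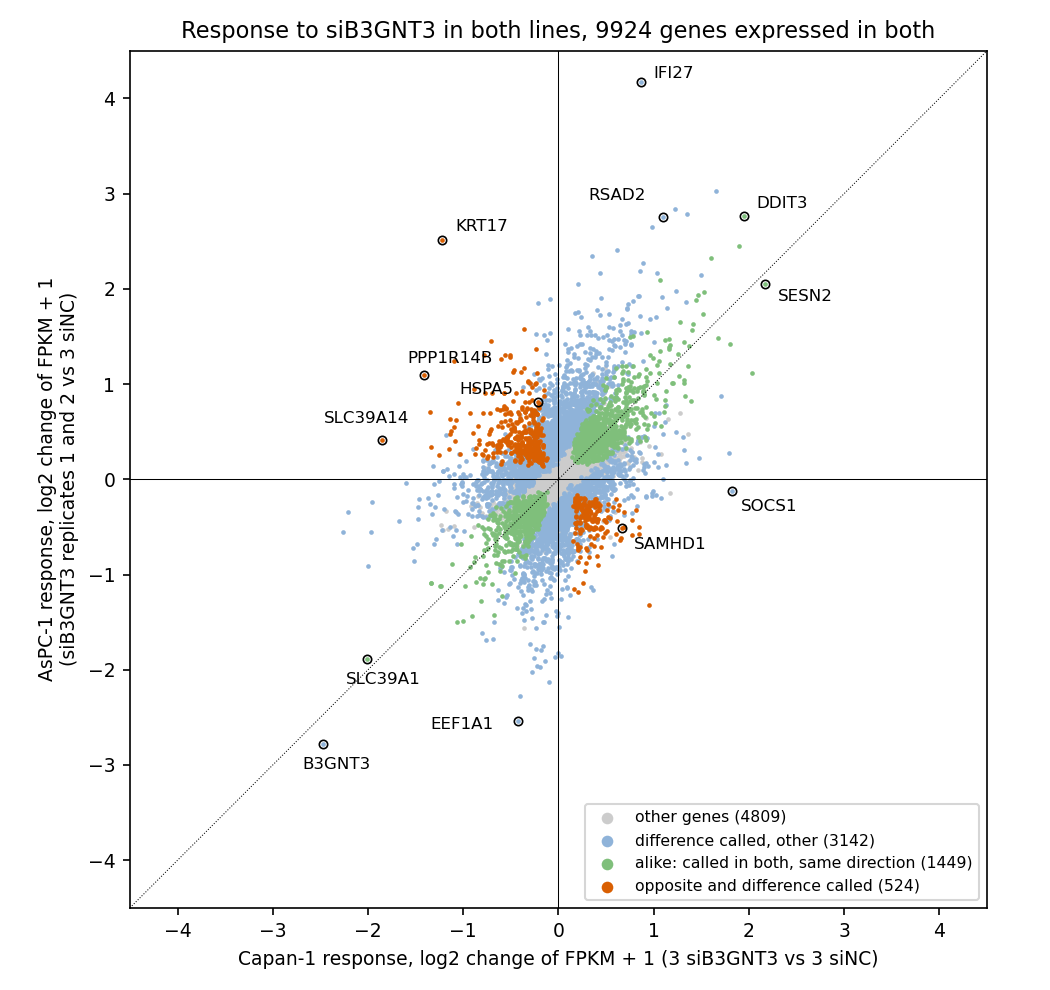
Response of each of the 9924 genes expressed in both lines (log2 change of FPKM + 1, siB3GNT3 against siNC) in Capan-1 on the x axis and in AsPC-1, with the doubted library set apart, on the y axis; colours give the 1449 genes called alike, the 357 and 167 called opposite and the other genes with a called difference, and the dotted line marks equal response. KRT17 sits at -1.22 in Capan-1 and 2.52 in AsPC-1, while SESN2 lies near the dotted line. DDIT3 lies above that line, at 1.95 in Capan-1 and 2.76 in AsPC-1, with no call on its difference.

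Genes of amino acid stress rose in both lines. DDIT3 (chromosome 12, 57516588 to 57521737, minus strand), the transcription factor CHOP, was 15, 15.6 and 17.8 FPKM in AsPC-1 with siNC, 117 and 112 with siB3GNT3 and 14.8 in the doubted library. In Capan-1 DDIT3 was 17.2, 14.9 and 16 with siNC and 102, 79.9 and 32.7 with siB3GNT3. No knockdown library overlapped its controls, apart from the doubted one, and Capan-1 replicate 3 rose least. The responses were 2.76 in AsPC-1 (SE 0.33) and 1.95 in Capan-1 (SE 0.30; adjusted p = 5.04e-05 and 0.000449), and their difference of 0.81 was not called (95% interval -0.17 to 1.80, adjusted p = 0.182). TRIB3, a pseudokinase that restrains ATF4 signalling, responded by 2.45 and 1.89. ATF3, a stress transcription factor, responded by 2.32 and 1.6, and the antioxidant and growth regulator SESN2 by 2.05 and 2.17. Each of these differences had an interval that holds 0, from -1.22 to 0.97 for SESN2 to -0.55 to 1.67 for TRIB3. They also rested on the spread of Capan-1 siB3GNT3: without replicate 1 of that group DDIT3, TRIB3 and ATF3 differed by 1.14, 1.05 and 1.10 (adjusted p = 0.0346, 0.0171 and 0.00821), and without replicate 3 SESN2 differed by -0.65 (adjusted p = 0.00808).

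Of 25 tested genes of the ATF4 list, 19 rose in AsPC-1 and 22 in Capan-1, 18 of them in both, and 0 fell in either, with medians of 0.99 and 0.96. The difference was higher in AsPC-1 for 3 genes and lower for 3; as labelled it was higher for 0 and lower for 2. PPP1R15A, the phosphatase subunit that reverses the stress signal, was among the genes with a larger rise in AsPC-1: 14.4, 14.3 and 14.1 FPKM in siNC and 105 and 111 with siB3GNT3, against 21.1, 17.4 and 18.8 and 74.2, 46.9 and 27.5 in Capan-1 (difference 1.61, SE 0.37, adjusted p = 0.00629; as labelled 0.67, 0.662). ATF4 mRNA itself rose by 1.03 in AsPC-1 and 0.32 in Capan-1 (difference 0.72, adjusted p = 3.76e-05; as labelled 0.471). Of the 3 genes with a lower response in AsPC-1, PHGDH and STC2 were barely expressed there and SHMT2 was expressed in both lines. PHGDH, the first enzyme of serine synthesis, was at most 0.0235 FPKM in AsPC-1, and 6.97, 6.27 and 6.03 FPKM with siNC and 13.1, 10.6 and 8.81 with siB3GNT3 in Capan-1. STC2, a secreted glycoprotein, was 0.101, 0.0843 and 0.083 in AsPC-1 siNC and went from 79.3, 73.6 and 73.4 to 191, 156 and 108 FPKM in Capan-1 (difference -0.85, adjusted p = 0.0139; 0.0609 without AsPC-1 siB3GNT3 replicate 2, 0.0525 with no filter). With a pseudocount of 0.1 the STC2 difference was -0.43 and not called (adjusted p = 0.261). Aminoacyl-tRNA synthetases, many of which are ATF4 targets, rose for 13 of 20 genes in AsPC-1 and 10 in Capan-1, and fell for 1 and 3.

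Genes that fell alike included several membrane proteins. SLC39A1 (chromosome 1, 153959099 to 153968184, minus strand), a zinc importer, was 68.2, 67.8 and 69.3 FPKM in AsPC-1 with siNC, 18.6 and 17.1 with siB3GNT3 and 68.4 in the doubted library. In Capan-1 SLC39A1 went from 122, 117 and 122 with siNC to 28.4, 28.5 and 30.2. The fall was by 1.88 and by 2.01 on the log2 scale (adjusted p = 1.94e-09 and 1.24e-09; difference 0.13, 95% interval -0.03 to 0.29). UBL4A, which helps insert tail-anchored proteins, fell by 1.12 and 1.25, and FKBP1A, the FK506-binding prolyl isomerase, by 1.12 and 1.24. The ER-shaping protein RTN4 fell by 1.09 and 1.34 and the lysosomal membrane protein LAPTM4A by 1.09 and 1.34. Without Capan-1 siB3GNT3 replicate 3, differences of 0.35 for FKBP1A and 0.39 for RTN4 were called (adjusted p = 0.00625 and 0.000289). LAPTM4A was lower in that library (60.8, 59.8 and 37.5 FPKM in Capan-1 siB3GNT3 replicates 1 to 3), while FKBP1A was higher there (47.9, 56.2 and 85.5). SLC39A1 and the other genes of this group, like DDIT3, TRIB3, ATF3, SESN2 and the interferon-induced XAF1 (responses 1.97 and 1.52), were named because the fit called both responses and not the difference, so their likeness is a description. Under other settings XAF1 differed by 1.65 with a pseudocount of 0.1, by 0.43 with array weights and by 0.55 without AsPC-1 siNC replicate 1 (adjusted p = 0.0112, 0.0459 and 0.0377). Array weights also gave called differences for DDIT3, ATF3, SLC39A1 and RTN4 (0.52, 0.64, 0.15 and 0.37; adjusted p = 0.0314, 0.0156, 0.0408 and 0.000873).

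**Figure D2:**
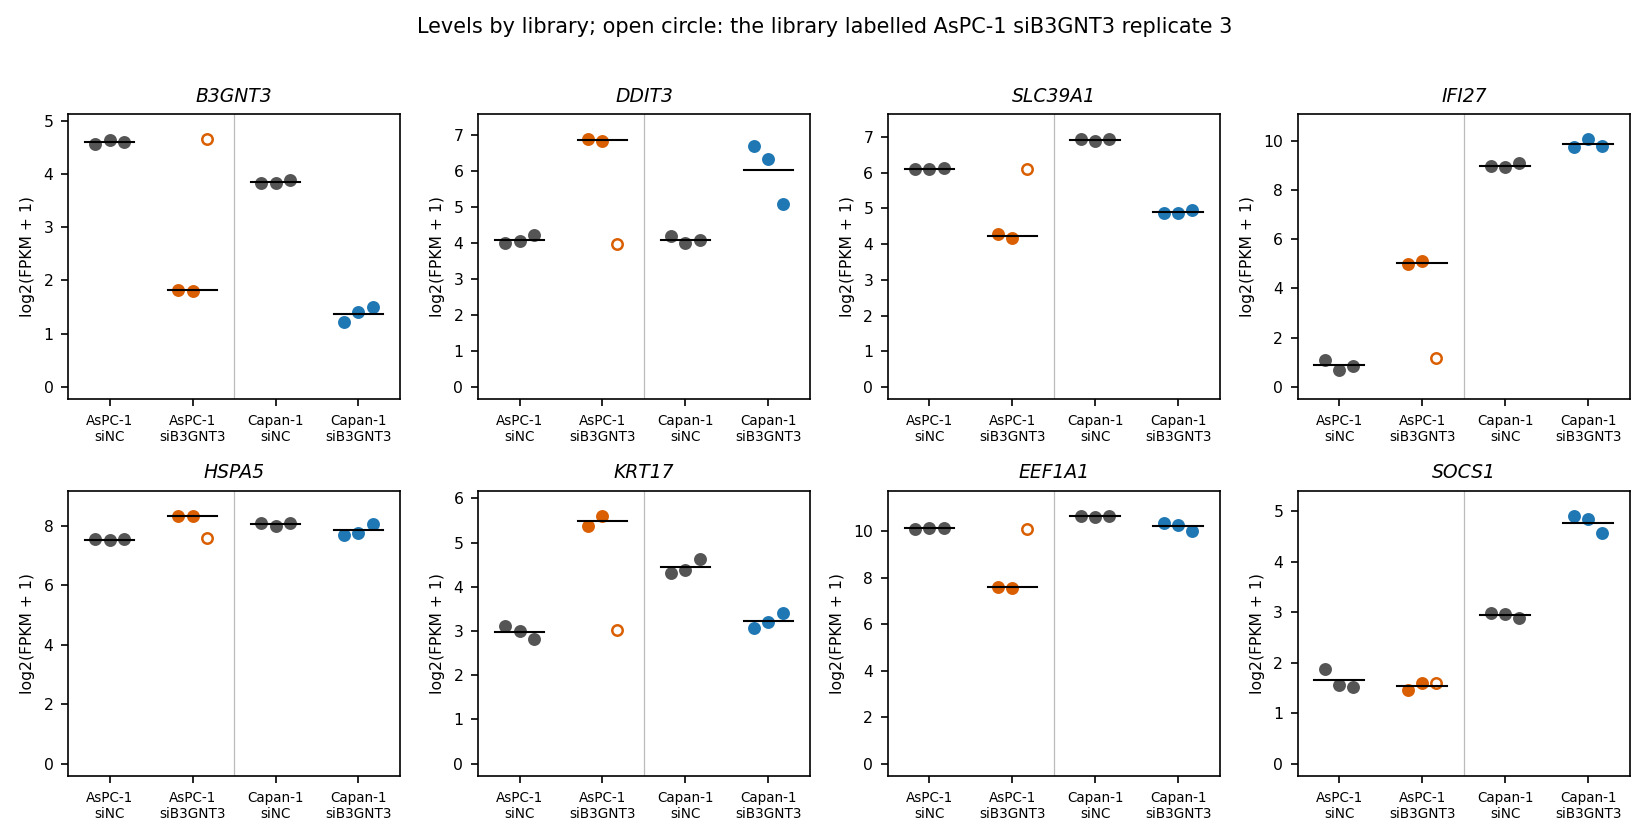
Levels of 8 genes expressed in both lines, as log2(FPKM + 1), in each of the 12 libraries; bars are means, without the doubted library (open circle). DDIT3 is high and SLC39A1 low after knockdown in both lines, IFI27 rises far more in AsPC-1 and KRT17 moves in opposite directions. HSPA5 rises in AsPC-1 and is lower on average in Capan-1, where replicate 3 lies within the controls. EEF1A1 falls far more in AsPC-1 and SOCS1 rises in Capan-1.

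Most interferon-stimulated genes rose in both lines. Of 43 tested, 37 rose in AsPC-1 and 39 in Capan-1, 34 in both, and 0 fell, with medians of 1.21 and 0.89. The response was higher in AsPC-1 for 19 genes and lower for 7, beside 20.4% and 15.2% of all genes. As labelled the counts were 0 and 6, and the AsPC-1 median was 0.82. IFI27 (chromosome 14, 94104836 to 94116698, plus strand), a mitochondrial interferon-induced protein, was 1.12, 0.618 and 0.811 FPKM in AsPC-1 with siNC and 30.9 and 33.5 with siB3GNT3, and 1.26 in the doubted library. Capan-1 already had 501, 483 and 541 FPKM of IFI27 with siNC and reached 846, 1072 and 872 with siB3GNT3. The responses of 4.17 and 0.86 differed by 3.31 (SE 0.16, adjusted p = 4.14e-07; as labelled 2.02, 0.268). After knockdown the AsPC-1 level of IFI27 was still far below the Capan-1 control level.

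RSAD2, the antiviral protein viperin, started lower and ended higher in AsPC-1. It went from 1.31, 1.27 and 1 to 13.6 and 14 FPKM there (1.52 in the doubted library) and from 2.43, 2.74 and 2.98 to 7.1, 6.4 and 7.34 in Capan-1 (difference 1.66, SE 0.12, adjusted p = 5.92e-06; as labelled 0.516). IFIT2, which binds foreign RNA, had alike levels in siNC, 17.1, 16.2 and 17.2 FPKM in AsPC-1 and 16.4, 19.5 and 22.1 in Capan-1. With siB3GNT3 IFIT2 reached 83.7 and 85.7 FPKM in AsPC-1 and 38.8, 37.8 and 33 in Capan-1, a response difference of 1.38 (adjusted p = 4.31e-05; as labelled 0.544). OASL, a relative of the RNA-sensing oligoadenylate synthetases, rose in AsPC-1 with no call in Capan-1. OASL was 34.5, 31.5 and 31.9 in siNC and 94.5 and 98.4 with siB3GNT3 in AsPC-1, against 18.3, 18.2 and 17.8 and 19.6, 16.4 and 15 FPKM in Capan-1, where 2 of 3 knockdown libraries lay below the controls (difference 1.63, adjusted p = 6.22e-06; as labelled 0.155).

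Of the 7 genes with a lower interferon response in AsPC-1, MX1, MX2, TRIM22 and CMPK2 were low or silent in that line, while GBP1, STAT2 and PARP14 were expressed in both. MX1 and MX2, dynamin-like antiviral GTPases named here after their values were seen, were 0.117, 0.0614 and 0.108 and 0.0569, 0.0345 and 0.0735 FPKM in AsPC-1 with siNC. With siB3GNT3 they were 0.363 and 0.433 and 0.889 and 0.532. In Capan-1 MX1 went from 29.3, 32.7 and 45 to 92.1, 105 and 128 FPKM and MX2 from 4.02, 4.75 and 6.5 to 18.4, 20.2 and 22.8. Their response differences were -1.24 and -1.14 (adjusted p = 0.00124 and 0.0014; as labelled 0.00544 and 0.0102), a scale on which the low AsPC-1 levels are compressed. With a pseudocount of 0.1 the difference turned to 0.35 for MX2 and 0.06 for TRIM22, and that of MX1 was -0.26 and no longer called (adjusted p = 0.493). TRIM22, also chosen after its values were seen, differed by -0.88 (adjusted p = 0.000546).

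Single RNA sensors showed both patterns. IFIH1, the sensor MDA5, went from 7.05, 7.69 and 7.32 to 31.5 and 29.7 FPKM in AsPC-1 and from 6.67, 6.8 and 8.9 to 13.8, 13.6 and 14.7 in Capan-1 (difference 1.08, adjusted p = 0.000146; as labelled 0.655). DHX58, the sensor LGP2, differed by 1.01 (adjusted p = 0.00189). ADAR, which edits double-stranded RNA, was unlike them: 61.9, 57.1 and 57.2 FPKM in AsPC-1 with siNC and 61.8 and 63.1 with siB3GNT3, but 66.9, 73.6 and 74.6 and 102, 103 and 111 in Capan-1, where the groups did not overlap. Its difference of -0.46 (adjusted p = 0.00211) was also called as labelled (-0.50, 0.0102). In the list of RNA sensors and interferons, 8 of 15 rose in each line and 1 fell in each. In AsPC-1 4 differences were higher and 2 lower (0 and 1 as labelled), near the 20.4% and 15.2% of all genes.

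SOCS1 (chromosome 16, 11254405 to 11256200, minus strand), the feedback inhibitor of JAK kinases downstream of interferon receptors, rose in Capan-1 with no call in AsPC-1. It was 2.66, 1.95 and 1.87 FPKM in AsPC-1 with siNC, 1.75 and 2.04 with siB3GNT3 and 2.01 in the doubted library. In Capan-1 SOCS1 was 6.94, 6.8 and 6.36 with siNC and 29.1, 27.6 and 22.6 with siB3GNT3. The AsPC-1 groups overlapped and the Capan-1 groups lay far apart. The responses of -0.12 (SE 0.12) and 1.83 (SE 0.11) differed by -1.94 (adjusted p = 1.38e-05), and as labelled by -1.93 (adjusted p = 0.000142).

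Of the ER chaperone genes more rose than fell in AsPC-1 and more fell than rose in Capan-1. Of 22 tested, 15 had a higher response in AsPC-1 and 0 a lower one, beside 20.4% and 15.2% of all genes; as labelled 4 were higher and 0 lower. In AsPC-1 10 rose and 4 fell (median 0.18), and in Capan-1 2 rose and 13 fell (median -0.22). The median difference of 0.40 compares with 0.03 for all genes. With median-ratio scaling 14 were higher and 1 lower, and without Capan-1 siB3GNT3 replicate 3 these were 18 and 1. HSPA5 (chromosome 9, 125234853 to 125241330, minus strand), the chaperone BiP, was 186, 183 and 186 FPKM in AsPC-1 with siNC, 324 and 324 with siB3GNT3 and 190.1 in the doubted library. Capan-1 libraries had 270.3, 255 and 269.8 FPKM of HSPA5 with siNC and 207, 217 and 267 with siB3GNT3, where replicate 3 fell within the range of the controls. Its responses were 0.81 and -0.21 (adjusted p = 1.96e-05 and 0.0468), a difference of 1.02 (SE 0.12, adjusted p = 8.37e-05; as labelled 0.76, 0.0754).

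HYOU1, an ER chaperone of the HSP70 family, went from 66.1, 64.6 and 61.2 to 90.5 and 93.2 FPKM in AsPC-1 and from 137, 141 and 138 to 116, 121 and 117 in Capan-1 (difference 0.75, adjusted p = 1.9e-05; as labelled 0.0743). SEL1L, the adaptor of an ER ubiquitin ligase, responded by 0.62 and -0.27 (difference 0.89, adjusted p = 1.56e-05). HERPUD1, a stress-induced membrane protein of ER degradation, rose in both lines but further in AsPC-1 (1.04 and 0.25, difference adjusted p = 0.000123). The calcium-binding chaperone CALR, which also serves in the peptide-loading complex, showed a fall in Capan-1 alone. CALR was 310.2, 309 and 318 FPKM in AsPC-1 with siNC and 309.7 and 312 with siB3GNT3, and 872, 841 and 807 and 597, 606 and 677 in Capan-1 (difference 0.42, adjusted p = 0.0021; as labelled 0.41, 0.0127). CANX, the lectin chaperone calnexin, responded by 0.22 in AsPC-1 (adjusted p = 0.00601) and by -0.11 in Capan-1 (adjusted p = 0.0953).

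KRT17 had the largest positive difference of the 9924 genes expressed in both lines, with opposite responses. KRT17 (chromosome 17, 41619441 to 41624842, minus strand) encodes a keratin of basal and stressed epithelia, and its reads may be shared with near-identical copies. It was 7.71, 7.04 and 6.04 FPKM in AsPC-1 with siNC, 40.8 and 47.9 with siB3GNT3 and 7.17 in the doubted library. In Capan-1 KRT17 was 19, 19.9 and 23.7 with siNC and 7.36, 8.2 and 9.66 with siB3GNT3. Neither line's groups overlapped, apart from the doubted library. The responses of 2.52 and -1.22 differed by 3.74 (SE 0.17, adjusted p = 3.41e-07), and as labelled by 2.91 (SE 0.71, adjusted p = 0.0287).

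Further genes up in AsPC-1 and down in Capan-1 had varied roles, and the differences of those in this paragraph were also called as labelled. PPP1R14B, an inhibitor of protein phosphatase 1, went from 114, 130.1 and 127 to 259 and 270.1 FPKM in AsPC-1 and from 215, 204 and 207 to 75, 65.5 and 96.4 in Capan-1 (difference 2.5, adjusted p = 3.05e-06; as labelled 2.12, 0.00544). YRDC, an enzyme of tRNA threonylcarbamoylation, went from 10.2, 11.8 and 11.7 to 19.4 and 18.6 and from 9.87, 8.44 and 9 to 3.3, 3.25 and 2.37 FPKM (difference 2.06; as labelled 1.86, adjusted p = 0.000863). In both genes each knockdown library lay beyond all controls of its line, the doubted library aside. LAMB3, a laminin chain of the epithelial basement membrane, was 143, 138 and 131 and 325 and 358 FPKM in AsPC-1 and 20.4, 22.7 and 23.9 and 14.8, 12 and 11.2 in Capan-1. GOLGA2, the Golgi matrix protein GM130, was 5.91, 6.87 and 6.78 and 19.3 and 19.9 in AsPC-1 and 11.6, 11.4 and 11.8 and 5.7, 6.71 and 7.95 in Capan-1. LAMB3 and GOLGA2 thus differed by 2.09 and 2.16 (as labelled 1.65 and 1.65, adjusted p = 0.0251 and 0.042). The kinesin KIF1C, the calcium-binding protein CALB2 and the basal keratin KRT15 differed by 1.83, 2.34 and 1.85 (as labelled 1.51, 1.93 and 1.6, adjusted p = 0.0102, 0.0157 and 0.00429).

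Genes called down in AsPC-1 and up in Capan-1 included SAMHD1 and FERMT2. SAMHD1, a nucleotide triphosphatase that limits retroviruses, went from 3.87, 3.93 and 3.48 to 2.4 and 2.26 FPKM in AsPC-1 and from 15.8, 16 and 18.8 to 23.1, 28.6 and 30.7 in Capan-1. Its difference of -1.18 (adjusted p = 0.000177) was -1.03 as labelled (adjusted p = 0.00837). FERMT2, an activator of integrins, went from 6.63, 6.64 and 5.73 to 4.18 and 3.67 and from 18.6, 17.9 and 18.5 to 32.6, 29.6 and 23.7 FPKM (difference -1.18; as labelled -1.01, adjusted p = 0.012). The GTPase RAB8B, the homeobox gene HOXB4 and the antisense transcript HOXA-AS2 differed by -1.05, -1.19 and -1.27 (as labelled -0.85, -1.04 and -1.09, adjusted p = 0.0292, 0.0189 and 0.00976). No source used here states a count by strand, so HOXA-AS2 cannot be told apart from HOXA genes that overlap it.

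Keratins and other epithelial genes, a list that holds KRT17, fell more often than they rose in Capan-1. Of 17 tested, 7 had a higher response in AsPC-1 and 2 a lower one (4 and 0 as labelled), with 6 up and 4 down in AsPC-1 (5 and 5 with median-ratio scaling) and 1 up and 8 down in Capan-1. KRT80 went from 4.02, 3.73 and 3.62 to 9.7 and 11.3 FPKM in AsPC-1 and from 42.2, 45.2 and 45.6 to 29.7, 26.4 and 30.4 in Capan-1 (difference 1.87, adjusted p = 1.67e-06; as labelled 1.49, 0.0192). KRT18, a keratin of simple epithelia, was 641, 632 and 654 and 717 and 724 FPKM in AsPC-1 and 917, 909 and 976 and 558, 639 and 643 in Capan-1, so that its fall in Capan-1 made most of the difference (0.77, adjusted p = 6.46e-05; as labelled 0.72, 0.00141). The 2 lower genes were basal keratins silent in Capan-1, KRT14 and KRT5.

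Of the mesenchymal genes more rose than fell in Capan-1. Of 16 tested, 9 had a lower response in AsPC-1 and 0 a higher one (4 and 0 as labelled), with 3 up and 6 down in AsPC-1 and 9 up and 1 down in Capan-1. The median difference was -0.35. The count of 9 fell to 3 when a mean of 1 FPKM was required in each line, as several of these genes are near silence in AsPC-1. FN1, fibronectin, was 0.704, 0.508 and 0.553 FPKM in AsPC-1 with siNC and 0.233 and 0.262 with siB3GNT3, and 54.1, 54.6 and 45.1 and 112, 102 and 84.9 in Capan-1 (difference -1.29, adjusted p = 0.000122; as labelled -1.25, 0.00097). ZEB1, a transcription factor of epithelial-mesenchymal transition, was expressed in both lines. ZEB1 was 15.8, 15.6 and 16.8 and 13.2 and 12.9 FPKM in AsPC-1 and 7.54, 7.48 and 7.28 and 17.2, 15.8 and 9.97 in Capan-1, where all 3 knockdown libraries lay above the controls (difference -1.11, adjusted p = 0.00235; as labelled -1.02, 0.0164). The collagen gene COL1A1 and the matrix protein TGFBI differed by -0.91 and -0.60 (as labelled -0.88 and -0.54, adjusted p = 0.00067 and 0.0157).

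Beside these genes, the summed level of some stromal and blood cell markers rose in Capan-1, while the markers LUM and LYZ fell. The summed FPKM of 8 such markers (PTPRC, CD3E, CD14, PECAM1, VWF, COL1A1, COL3A1 and DCN) was 51.1 to 57.4 in Capan-1 siNC and 79.1 to 84.5 with siB3GNT3, nearly all of it COL1A1, which is also in the mesenchymal list. In AsPC-1 the sums were 0.847 to 1.05 and 0.727 to 0.842. DCN and CD3E were at or near 0 in each library. CD14, a monocyte and macrophage receptor, was 2.91, 2.67 and 2.98 FPKM in Capan-1 siNC and 5.44, 4.18 and 4.91 with siB3GNT3 (difference -0.62, adjusted p = 0.00484; as labelled -0.65, 0.0122), and at most 0.14 FPKM in AsPC-1. With a pseudocount of 0.1 the CD14 difference was -0.91 and not called (adjusted p = 0.166). LUM, a matrix proteoglycan of stromal cells, went the other way: 79.5, 91.8 and 85.3 FPKM in AsPC-1 with siNC, 86.2 and 81.3 with siB3GNT3, and 9.13, 9.74 and 10.1 and 6.05, 5.63 and 5.96 in Capan-1 (difference 0.60; as labelled 0.57, adjusted p = 0.0064). LYZ, a marker silent in AsPC-1, also fell in Capan-1, from 2.25, 2 and 2.94 to 1.61, 1.42 and 1.24 FPKM. Its difference was 0.461 (adjusted p = 0.0329), and as labelled 0.465 (adjusted p = 0.0623). LUM and LYZ are not among the 8 summed markers. Of the 6 tested genes of the list of stromal and blood cell markers, 2 differed in each direction. No acinar or endocrine marker passed the filter. The part of other cells in the mesenchymal result was not tested, and in bulk libraries a changed share of cells and a changed amount of RNA per cell cannot be told apart.

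Several genes fell in AsPC-1 by far more than in Capan-1, and none of the 8 described next was called as labelled. EEF1A1, the main translation elongation factor, whose reads may be shared with many near-identical copies, was 1088, 1109 and 1128 FPKM in AsPC-1 with siNC and 192 and 189 with siB3GNT3, and 1616, 1551 and 1613 and 1317, 1238 and 1013 in Capan-1. EEF1A1 fell in both lines, by 2.54 and by 0.43, so that the difference of -2.1 is one of size (adjusted p = 1.13e-06; as labelled 0.289).

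RDH11, a retinal reductase, fell by 2.27 in AsPC-1, from 51.3, 52 and 52.3 to 9.81 and 10.1 FPKM, and by 0.41 in Capan-1, from 121, 118 and 118 to 82.6, 90.02 and 97.5 (difference adjusted p = 3.41e-07; as labelled 0.274). ITGB1, the integrin beta 1 chain, went from 441, 432 and 442 to 124 and 115 FPKM in AsPC-1, while Capan-1 had 724, 728 and 732 with siNC and 791, 805 and 565 with siB3GNT3, replicate 3 below and the other 2 above the controls. SLC7A7, an amino acid transporter, fell from 30.9, 31.1 and 27.6 to 8.6 and 6.92 FPKM in AsPC-1 and overlapped between groups in Capan-1 (10.2, 9.19 and 8.48 and 10.5, 9.35 and 7.94). Their differences were -1.84 and -1.81 (adjusted p = 1.57e-05 and 1.56e-05; as labelled 0.172 and 0.162). The small GTPase RALB, the interleukin-1 pathway inhibitor SIGIRR, the phosphatase CTDSP1 and the centrosomal protein TACC1 differed by -1.74, -1.76, -1.88 and -1.78. RALB, CTDSP1 and TACC1 were each far lower in Capan-1 siB3GNT3 replicate 3 than in the other libraries of that line: TACC1, for example, was 23.9, 25.4 and 9.32 FPKM in replicates 1 to 3 against 20.1, 20.8 and 21 in siNC.

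Cholesterol synthesis genes fell in AsPC-1 and less so in Capan-1. Of 25 tested, 14 had a lower response in AsPC-1 and 1 a higher one, PMVK, beside 15.2% and 20.4% of all genes; as labelled the counts were 0 and 0. In AsPC-1 18 fell and 2 rose (median -0.65), in Capan-1 7 fell and 3 rose (median -0.16), or 12 and 3 without Capan-1 siB3GNT3 replicate 3. ACAT2, an acetyl-CoA thiolase, and SQLE, the squalene epoxidase, differed by -1.35 and -0.94 (adjusted p = 3e-05 and 5.53e-05; as labelled 0.217 and 0.111). SQLE fell in AsPC-1 and rose in Capan-1 (-0.73 and 0.20).

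Fatty acid genes followed with 8 lower and 1 higher of 17 (2 and 0 as labelled), 13 down and 1 up in AsPC-1 and 6 down and 2 up in Capan-1. The desaturases SCD and FADS1 fell in both lines, SCD by 1.21 and 0.54 and FADS1 by 0.99 and 0.36 (difference adjusted p = 0.000759 and 8.81e-05). The acyl-CoA synthetases ACSL1 and ACSL4 went in opposite directions. ACSL1 was 2.94, 2.49 and 2.62 and 1.49 and 1.4 FPKM in AsPC-1 and 1.67, 1.03 and 1.61 and 3.84, 2.71 and 2.9 in Capan-1 (difference -1.36; as labelled -1.21, adjusted p = 0.0064). ACSL4, which prefers polyunsaturated chains, was 14.7, 13.7 and 13.6 and 12 and 10.1 in AsPC-1 and 43.4, 42.4 and 41 and 74.6, 66.2 and 57.4 FPKM in Capan-1 (difference -0.94; as labelled -0.86, adjusted p = 0.0064).

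**Figure D3:**
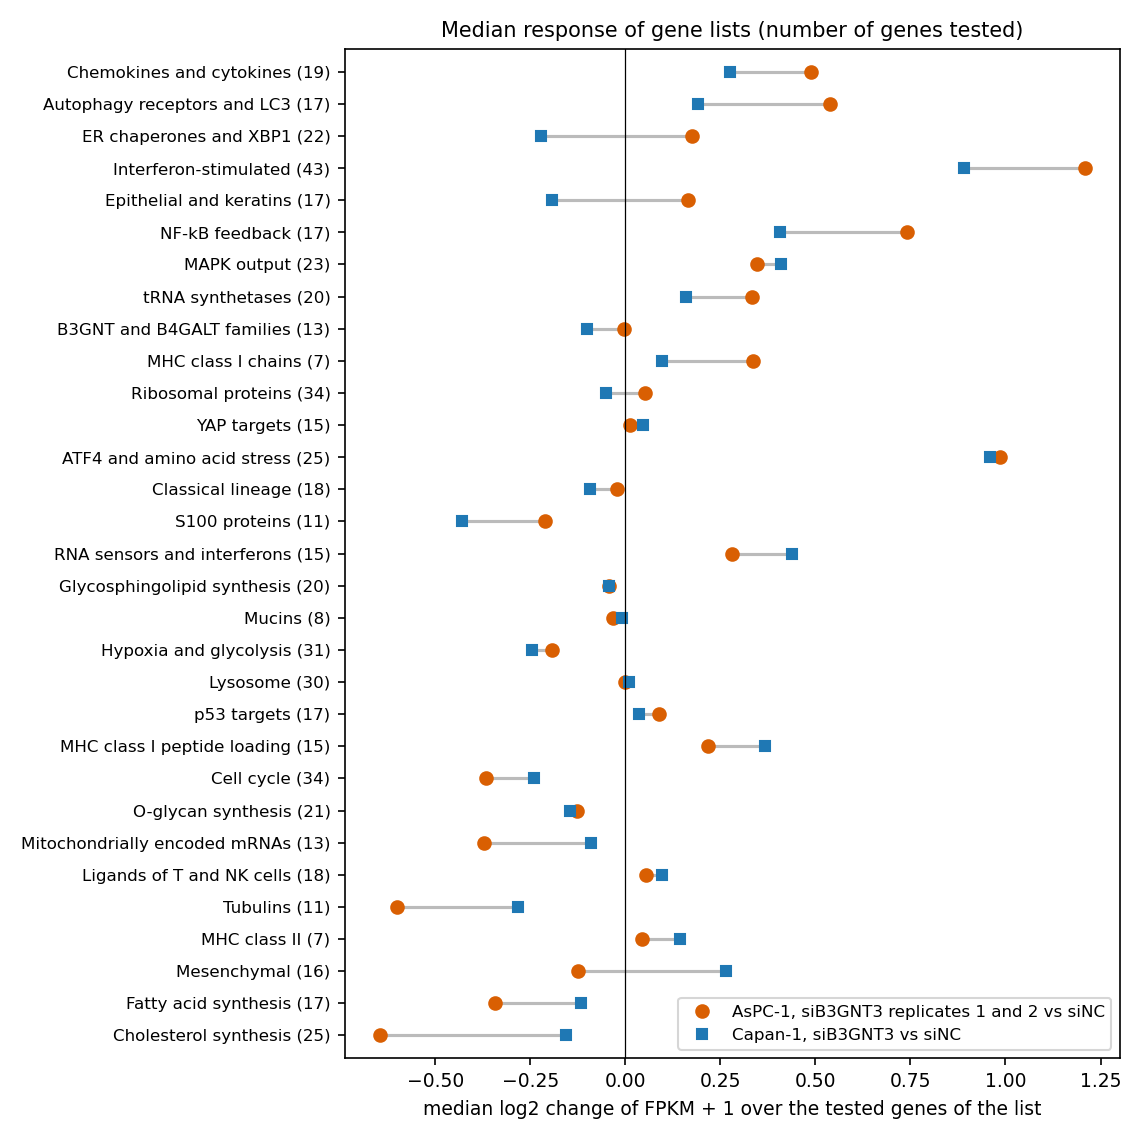
Median response over the tested genes of each list (number in parentheses) in AsPC-1, with the doubted library set apart (circles), and in Capan-1 (squares), as log2 change of FPKM + 1, ordered by the median of the gene-wise response difference. The ATF4 list lies at nearly the same place in both lines, 0.99 and 0.96, while ER chaperones, epithelial and mesenchymal genes lie on opposite sides of 0.

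Some genes rose in AsPC-1 with a much smaller or no called response in Capan-1. IRAK2, a kinase of interleukin-1 and Toll-like receptor signalling, went from 1.44, 1.03 and 1.41 to 7.02 and 7.47 FPKM in AsPC-1 and from 5.89, 5.51 and 5.56 to 6.16, 5.16 and 3.3 in Capan-1 (difference 2.06, adjusted p = 6.35e-05; as labelled 0.125). CLDN1, a tight junction protein, went from 2.3, 2.11 and 2.11 to 15 and 15.2 FPKM in AsPC-1 and from 18.7, 20.9 and 22.2 to 33.9, 27.3 and 19.9 in Capan-1 (difference 2.00; as labelled adjusted p = 0.227). In both genes the AsPC-1 groups lay apart and the Capan-1 groups overlapped. Autophagy genes rose for 14 of 17 in AsPC-1 and 8 in Capan-1, and fell for 0 and 4, with 11 differences higher and 1 lower (3 and 0 as labelled). GABARAPL1, an LC3 relative, responded by 1.52 and 0.38, and the cargo receptor SQSTM1 by 0.72 and 0.21 (difference adjusted p = 0.000207 and 0.000156). TAX1BP1, an autophagy receptor, and BECN1, a subunit of the kinase complex that starts autophagosomes, were opposite. TAX1BP1 was 23.7, 25.4 and 27.1 and 41.7 and 38.1 FPKM in AsPC-1 and 28.9, 30.1 and 29.4 and 13.6, 12.1 and 12.9 in Capan-1 (difference 1.77; as labelled 1.57, adjusted p = 0.000938), and BECN1 differed by 0.70 (as labelled 0.60, adjusted p = 0.0101).

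In Capan-1 SLC39A14 (chromosome 8, 22367249 to 22434129, plus strand), an importer of zinc and iron, fell in all 3 knockdown libraries, while it rose in AsPC-1. It was 30.2, 30.7 and 28.1 FPKM in AsPC-1 with siNC, 40.3 and 39.2 with siB3GNT3 and 29.9 in the doubted library, and 35.2, 37.1 and 39 and 8.8, 8.51 and 11.5 in Capan-1. The responses of 0.41 and -1.85 differed by 2.27 (SE 0.14, adjusted p = 2.15e-06; as labelled 2.13, 0.000142). Its relative SLC39A1 fell in both lines.

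NF-kB genes rose in both lines, 13 of 17 in AsPC-1 and 11 in Capan-1, with 1 and 0 down and 6 differences higher and 2 lower (0 and 1 as labelled, 3 and 2 with median-ratio scaling). RELB, an NF-kB subunit of the noncanonical pathway, went from 5.22, 4.32 and 5.21 to 19.3 and 19.1 FPKM in AsPC-1 and from 2.44, 2.3 and 2.26 to 4.92, 2.83 and 2.79 in Capan-1 (difference 1.37, adjusted p = 0.000665; as labelled 0.3). NFKB2, its usual partner, differed by 1.07, and NFKB1 by -0.71 in the other direction (adjusted p = 0.000568 and 0.00994). Among chemokines and cytokines 10 of 19 rose in AsPC-1 and 8 in Capan-1, and 0 and 1 fell, with 8 differences higher and 3 lower (0 and 3 as labelled). CCL5, which draws T cells, went from 2.52, 2.09 and 2.27 to 11.8 and 10.7 FPKM in AsPC-1 and overlapped in Capan-1 (6.78, 4.64 and 5.93 and 6.48, 4.99 and 4.63; difference 1.99, adjusted p = 3e-05; as labelled 0.221). The neutrophil chemokines CXCL8 and CXCL1 differed by 1.08 and 0.58; CXCL8 rose in both lines, by 1.93 and 0.84.

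Genes silent in AsPC-1 gave most of the calls made as labelled outside the genes expressed in both lines. Of the 634, the Capan-1 response was up for 251 and down for 73, and the AsPC-1 response was called for 0. IL6 (chromosome 7, 22725884 to 22732002, plus strand), the inflammatory cytokine, was at most 0.145 FPKM in any AsPC-1 library, while Capan-1 had 20.7, 19.1 and 19.2 FPKM with siNC and 82.2, 68.7 and 41.5 with siB3GNT3. Its Capan-1 response was 1.6 (SE 0.18, adjusted p = 6.04e-05), with all 3 knockdown libraries above the controls. The Capan-1 response rose also for CYP24A1, the vitamin D hydroxylase, from 4.8, 4.38 and 3.9 to 22.1, 19 and 12.9 FPKM. PTGS2, the inducible cyclooxygenase, went from 37.9, 38.9 and 36.8 to 165, 115 and 63 FPKM, FGA, a fibrinogen chain, from 4.29, 3.8 and 3.75 to 14.9, 11.1 and 12.4, and C11orf96 from 1.42, 1.26 and 1.74 to 13.2, 12.3 and 7.49. Replicate 3 was lowest of the knockdown libraries in 4 of these 5 genes, FGA being the exception. IDO1, which degrades tryptophan, and the endoderm transcription factor FOXA2 rose by 1.1 and 0.77 in Capan-1; FOXA2 was listed at 0 in each AsPC-1 library.

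Among genes silent in AsPC-1 that fell in Capan-1, CST1, a cystatin protease inhibitor, went from 47.6, 41.2 and 46.2 to 21.1, 24.7 and 14.2 FPKM in Capan-1, and its neighbour CST4 from 8.51, 8.18 and 6.95 to 3.3, 4.8 and 3.21; CST4 was listed at 0 in each AsPC-1 library. These related genes may share reads. KRT4, a keratin of stratified mucosa, went from 82.1, 86.3 and 98.8 to 39.2, 48.6 and 61.6 FPKM, and ADH1C, an alcohol dehydrogenase, from 231, 225 and 232 to 127, 127 and 134. All Capan-1 knockdown libraries lay below all controls of that line in CST1, CST4, KRT4 and ADH1C. With a pseudocount of 0.1 the differences of IL6, CST1, KRT4 and ADH1C were no longer called (-0.97, 1.44, 1.06 and 0.88; adjusted p = 0.0893, 0.0539, 0.0532 and 0.0997). As labelled, differences were called for each of the genes of this and the preceding paragraph, for example -2.24 for C11orf96, -1.83 for CYP24A1 and -1.54 for IL6 (adjusted p = 0.000284, 0.000629 and 0.00569). Since the AsPC-1 response of a silent gene cannot move, such a difference restates the Capan-1 response. ANXA10, an annexin low but not silent in AsPC-1, also fell: 83.8, 82.8 and 93.8 FPKM in Capan-1 siNC and 41.4, 45.6 and 41.6 with siB3GNT3 (difference 1.02; as labelled 1.04, adjusted p = 0.000486). Classical lineage genes, of which 7 were silent in AsPC-1, had 6 differences higher and 1 lower (2 and 1 as labelled) among 18 tested.

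Genes silent in Capan-1 were fewer, and with the doubted library set apart 34 of the 108 had a higher and 22 a lower response in AsPC-1. SPINK6 (chromosome 5, 148202794 to 148215137, plus strand), a protease inhibitor of skin, was 78.1, 68.1 and 87.2 FPKM in AsPC-1 with siNC, 28.2 and 20.03 with siB3GNT3 and 86.8 in the doubted library, and was listed at 0 in all 6 Capan-1 libraries. NOS3, the endothelial nitric oxide synthase, went from 13.8, 12.9 and 12.9 to 5.08 and 5.59 FPKM, and the basal keratin KRT14 from 108, 140.4 and 118 to 61.1 and 61.6. The ubiquitin ligase MARCHF4 went from 9.36, 7.11 and 8.94 to 3.22 and 4.29 and the dipeptidase DPEP1 from 7.5, 8.63 and 8.28 to 3.54 and 3.86. Each of these 5 genes was lower in both kept knockdown libraries than in all controls, with the doubted library at 14.9 FPKM for NOS3 and 120.2 for KRT14. Rises were seen for the homeobox gene HOXC10, from 13, 14.5 and 13.4 to 26.7 and 26.1 FPKM, the chemokine CCL24, from 21.3, 22 and 25.1 to 43.1 and 38.7, and the neurokinin precursor TAC3, from 3.22, 3.5 and 3.36 to 6.28 and 5.58. SLCO4A1-AS1 went from 2.5, 3.35 and 1.77 to 6.55 and 9.3 FPKM; as an antisense transcript it cannot be told apart here from SLCO4A1. None of these 9 differences was called as labelled; HOXC10 had the smallest adjusted p of them (0.118). With a pseudocount of 0.1 the differences of DPEP1, HOXC10, CCL24 and TAC3 were not called with replicate 3 set apart either (adjusted p = 0.0567, 0.11, 0.132 and 0.0968).

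**Figure D4:**
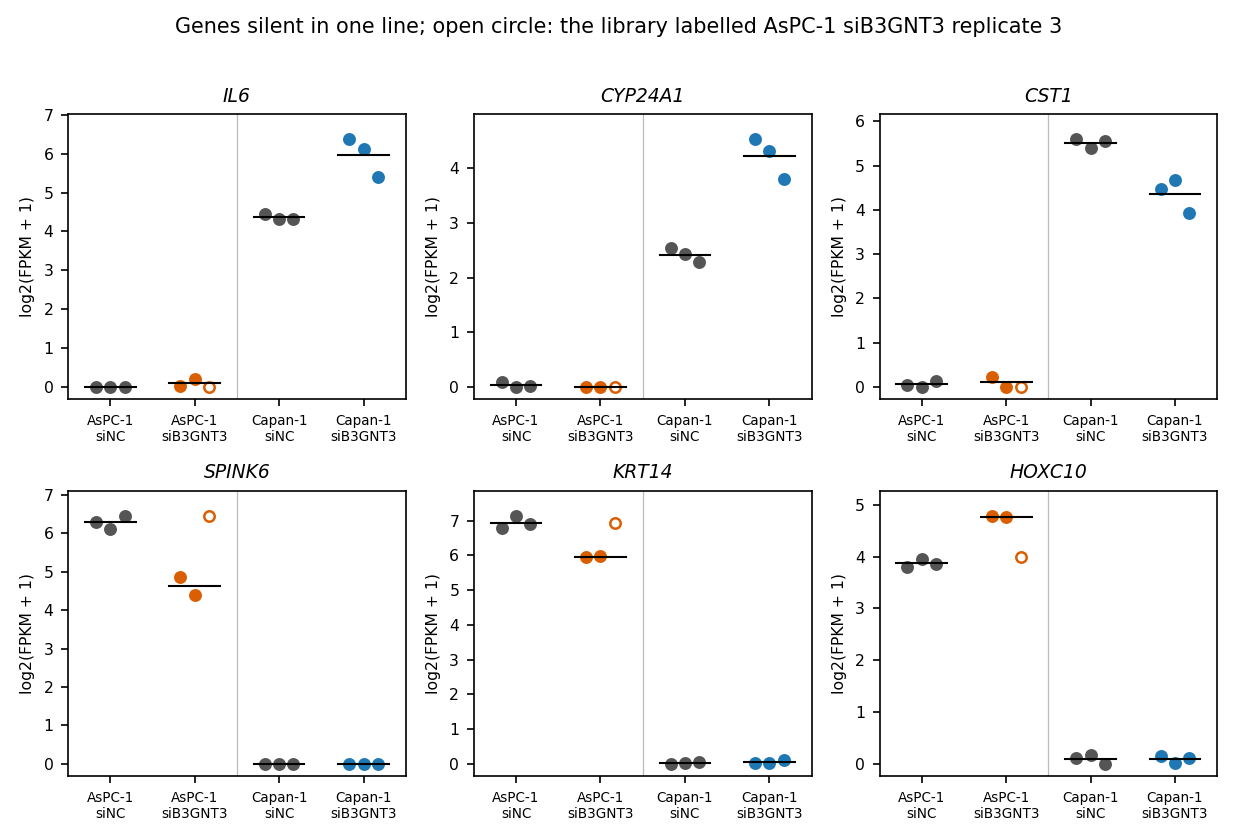
Levels of 6 genes silent in one line, as log2(FPKM + 1), in each of the 12 libraries; bars are means, without the doubted library (open circle). IL6 and CYP24A1 rise and CST1 falls in Capan-1 while staying near 0 in AsPC-1, and SPINK6 and KRT14 fall and HOXC10 rises in AsPC-1 while staying near 0 in Capan-1.

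MHC class I mRNAs, which encode the molecules that present peptides to CD8 T cells, rose for 6 of 7 tested genes in AsPC-1 and 3 in Capan-1, and 0 fell; the response was higher in AsPC-1 for 2. Reads may be divided wrongly among HLA genes, whose sequences are similar, and their single values are uncertain to that extent. HLA-E, the ligand of the NKG2A receptor, went from 40.6, 39.2 and 41.1 to 51.9 and 50.9 FPKM in AsPC-1 and from 71.3, 70.1 and 71.2 to 73.5, 74.5 and 76.3 in Capan-1 (difference 0.27, adjusted p = 0.0076; as labelled 0.427). HLA-B went from 57.7, 57.7 and 67 to 90.7 and 90.4 FPKM in AsPC-1 and from 89.2, 79.3 and 82.3 to 110.2, 116 and 124 in Capan-1, a rise in each (difference 0.10, 95% interval -0.14 to 0.33). HLA-C rose by 0.19 and 0.30 and the light chain B2M by 0.16 and 0.30, with intervals of the difference of -0.29 to 0.07 and -0.31 to 0.04. With array weights the B2M difference was called (-0.205, adjusted p = 0.0202). For HLA-F the responses were 0.34 (adjusted p = 0.0208) and 0.09 (adjusted p = 0.475). As labelled 0 of the 7 differed. With median-ratio scaling 4 rose in AsPC-1 in place of 6.

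Among genes that act on class I, NLRC5 rose more in Capan-1 and TAP2 rose there alone. NLRC5, the transactivator of class I genes, went from 5.94, 5 and 5.09 to 6.37 and 6.5 FPKM in AsPC-1 and from 1.9, 2 and 2.07 to 4.11, 4.01 and 4.22 in Capan-1 (difference -0.54, adjusted p = 0.00204; as labelled -0.63, 0.0125). TAP2, a subunit of the peptide transporter, was 15.8, 16.5 and 16.6 and 15.1 and 15.4 FPKM in AsPC-1 and 18.3, 18.4 and 18.4 and 23, 22.7 and 22.2 in Capan-1, where the groups did not overlap (difference -0.38; as labelled -0.36, adjusted p = 0.0192). Of 15 peptide loading genes 9 rose and 0 fell in AsPC-1, and 10 rose and 2 fell in Capan-1. Their differences were higher for 3 and lower for 5 (1 and 2 as labelled), beside 20.4% and 15.2% of all genes. CALR and CANX, described above, were among the higher ones (0.42 and 0.325, adjusted p = 0.0021 and 0.00519). With median-ratio scaling the AsPC-1 counts of this list were 5 up and 2 down. Of 7 class II genes, 5 were silent in AsPC-1. HLA-DRA went from 11.6, 12.6 and 12 to 20.1, 18.9 and 19.2 FPKM in Capan-1 and was at most 0.185 in AsPC-1 (as labelled -0.57, adjusted p = 0.00556; 0.156 with replicate 3 set apart and a pseudocount of 0.1). HLA-DMA, which loads class II, was 2.23, 3.56 and 3.67 and 1.76 and 1.15 FPKM in AsPC-1 and 23.7, 22.9 and 23.9 and 26.9, 24.1 and 24.5 in Capan-1 (difference -0.85, adjusted p = 0.00691; as labelled 0.235). Class II genes had 3 lower and 0 higher differences (1 and 0 as labelled), with 0 up and 1 down in AsPC-1 and 3 up and 0 down in Capan-1.

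ULBP2, ULBP3 and RAET1L encode ligands of the activating receptor NKG2D on T and NK cells. ULBP2 went from 6.28, 6.87 and 7.79 to 10.5 and 9.05 FPKM in AsPC-1 and from 9.85, 9.72 and 10.8 to 6.22, 6.46 and 7.19 in Capan-1 (difference 0.98; as labelled 0.84, adjusted p = 0.0159). ULBP3 differed by 0.65 (as labelled 0.60, adjusted p = 0.00709). RAET1L, low in Capan-1, went from 2.81, 2.32 and 2.14 to 11.6 and 11.1 FPKM in AsPC-1 (difference 1.85, adjusted p = 6.36e-05; as labelled 0.123). The 2 groups overlapped for RAET1L in Capan-1 (response 0.01, adjusted p = 0.973). These are the 3 higher differences among 18 tested genes of a list of T and NK cell ligands that also holds the enzyme IDO1. In that list 6 differences were lower (2 higher and 2 lower as labelled). Of these 18 genes 5 rose and 3 fell in AsPC-1, against 8 and 4 in Capan-1. Over all genes 20.4% had a higher and 15.2% a lower response in AsPC-1, so 3 higher of 18 was no excess.

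Among the enzymes of the same families as B3GNT3, B4GALT1 rose in both lines. B4GALT1, a galactosyltransferase of N-glycans and lactose, went from 18.9, 20.2 and 21.1 to 72.3 and 71.6 FPKM in AsPC-1 and from 15, 15.5 and 15.2 to 29.5, 24.3 and 23.6 in Capan-1 (difference 1.07, adjusted p = 5.55e-05; as labelled 0.614). B4GALT6, a lactosylceramide synthase like B4GALT5, fell in Capan-1 from 1.8, 2 and 2.11 to 0.845, 1.18 and 1.15 FPKM and was 4.56, 4.35 and 5 and 5.19 and 5.49 in AsPC-1 (difference 0.70; as labelled 0.65, adjusted p = 0.011). B4GALT5 itself had responses of -0.10 and -0.15, neither called (difference 0.05, 95% interval -0.14 to 0.24, and -0.03 with median-ratio scaling). B4GALT4 and B3GNT5 differed by 0.56 and -0.70 (adjusted p = 0.000809 and 0.00677). B3GNT3 had responses of -2.78 and -2.47; their difference of -0.31 is circular (adjusted p = 0.0439), was not called when any 1 library was left out other than Capan-1 siB3GNT3 replicates 1 and 3 (0.0617 to 0.116), nor with a pseudocount of 0.1 (-0.16, 0.444), no filter (0.0705), a replicate block (0.105) or the siB4GALT5 libraries added (0.0513), and was 0.63 as labelled (0.654). Of the 13 genes of both families 3 rose and 4 fell in AsPC-1 and 1 rose and 2 fell in Capan-1, with 3 differences higher and 4 lower (1 and 0 as labelled).

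O-glycan synthesis genes fell for 8 of 21 in each line, 4 of them in both, and rose for 1 and 3, with 3 differences higher and 6 lower (1 and 1 as labelled). ST6GALNAC4, a sialyltransferase, went from 37.3, 43 and 35.8 to 14.6 and 16.4 FPKM in AsPC-1 and from 11.6, 11.9 and 13.9 to 8.91, 7.34 and 6.78 in Capan-1 (difference -0.63, adjusted p = 0.00885). GALNT2 and GALNT7, which start or extend O-glycosylation, fell in AsPC-1 and rose in Capan-1 (differences -0.63 and -0.60; as labelled -0.46 and -0.53, adjusted p = 0.125 and 0.0119). Among mucins, the carriers of these glycans, MUC13 rose in AsPC-1 and fell in Capan-1. MUC13 was 75.6, 78.6 and 77.8 and 94.3 and 94.1 FPKM in AsPC-1 and 13.1, 13.5 and 13.6 and 8.09, 8.2 and 10.1 in Capan-1 (difference 0.85; as labelled 0.75, adjusted p = 0.00761). MUC16, silent in AsPC-1, went from 3.11, 4.34 and 3.46 to 6.11, 5.89 and 5.63 FPKM in Capan-1 (as labelled -0.57, adjusted p = 0.0192; 0.081 with replicate 3 set apart and a pseudocount of 0.1), and MUC1 differed by 0.33 (adjusted p = 0.0131; 0.0756 without AsPC-1 siB3GNT3 replicate 2, 0.059 with a replicate block). In all 2 of 8 mucins rose in each line, 0 and 2 fell, and 2 differences lay in each direction, beside 20.4% higher and 15.2% lower over all genes. Of 20 glycosphingolipid genes 6 differences were higher and 5 lower (1 and 2 as labelled), with 3 up and 6 down in AsPC-1 and 3 up and 7 down in Capan-1. B4GALNT1, which makes GM2 and GD2, fell by 1.46 and 0.27 (difference adjusted p = 3.41e-05), and SPTLC3, a subunit of the first enzyme of sphingolipid synthesis, differed by 1.11 (adjusted p = 0.000113).

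Proliferation genes fell in both lines. Of 34 cell cycle genes 23 fell in AsPC-1 and 17 in Capan-1, 14 in both, and 0 rose, with 3 differences higher and 9 lower. As labelled 1 was higher and 0 lower, and the median difference was 0.03 in place of -0.14. CDC20, which activates the anaphase-promoting complex, fell by 0.69 and 0.23 (difference adjusted p = 0.00132), and cyclin CCNE2 differed by -0.72 (adjusted p = 0.00158). The S-phase factor E2F1 fell in Capan-1, from 24.9, 27.3 and 25.9 to 13.4, 14.9 and 18.2 FPKM, and was 13, 11.7 and 12.7 and 14.1 and 14 in AsPC-1 (difference 0.89; as labelled 0.86, adjusted p = 0.00378). CCND1, which the MAPK pathway induces, differed by -0.80, and the AP-1 subunits JUN and FOSL1 by 1.45 and 0.39 (adjusted p = 1.67e-05, 4.52e-06 and 0.0066). MAPK output genes had 10 of 23 up and 2 down in AsPC-1, 11 up and 3 down in Capan-1, and 4 higher and 2 lower differences (0 and 0 as labelled). Of 17 p53 targets, 6 rose and 3 fell in AsPC-1 (with median-ratio scaling, 5 and 5) and 7 rose and 4 fell in Capan-1, with 3 higher and 2 lower (1 and 1 as labelled). The MAPK and p53 counts stand beside 20.4% higher and 15.2% lower differences over all genes. BTG2, an antiproliferative p53 target, went from 1.16, 0.911 and 1.15 to 3.56 and 3.33 FPKM in AsPC-1 and from 1.36, 1.64 and 1.15 to 0.683, 0.379 and 0.617 in Capan-1, opposite responses (difference 1.72; as labelled 1.36, adjusted p = 0.0268).

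Hypoxia and glycolysis genes fell in both lines for 11 and 13 of 31 and rose for 4 in each, with 4 higher and 8 lower differences (1 and 2 as labelled). ADM, the vasodilator adrenomedullin, went from 3.94, 4.54 and 4.3 to 10.8, 10.1 and 9.55 FPKM in Capan-1 and from 12.2, 13.4 and 13.5 to 10.04 and 12.6 in AsPC-1 (difference -1.27; as labelled -1.19, adjusted p = 0.000876). PFKFB3, a regulator of glycolysis, fell in Capan-1 from 176, 185 and 179 to 78.4, 92.8 and 109 FPKM and overlapped in AsPC-1 (9.78, 11.7 and 10.3 and 9.21 and 10.1; difference 0.83, as labelled 0.92, adjusted p = 0.0071). The carbonic anhydrase CA9 differed by 1.3 (adjusted p = 0.00206; as labelled 0.0564). S100 proteins fell for 6 of 11 in AsPC-1 and 7 in Capan-1 and rose for 1 and 3, with 4 higher and 2 lower differences (1 and 1 as labelled). S100A2 fell in Capan-1 from 10.3, 9.77 and 11.7 to 4.59, 5.04 and 4.65 FPKM and was 14.9, 11.3 and 13.8 and 14.9 and 12.8 in AsPC-1 (difference 1.06; as labelled 0.97, adjusted p = 0.00529). S100P rose in both lines, by 2.18 and 0.86 (difference adjusted p = 0.00106).

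Mitochondrially encoded mRNAs fell for 10 of 13 in AsPC-1 and 2 in Capan-1, with 7 lower and 0 higher differences (0 and 0 as labelled); ND6 differed by -1.17 (adjusted p = 0.000917). Tubulins fell for 8 of 11 in AsPC-1 and 5 in Capan-1 and rose for 0 and 1, with 1 difference in each direction (0 and 0 as labelled), or 0 higher and 6 lower with median-ratio scaling. Tubulin genes are similar and may share reads. TUBB3, a neuronal tubulin, was 43.7, 38 and 35.6 FPKM in Capan-1 siNC and 45.6, 45.9 and 97.7 with siB3GNT3, high in replicate 3 (difference -1.27, adjusted p = 0.0132; 0.0524 without AsPC-1 siB3GNT3 replicate 1, 0.0553 with no filter). Ribosomal protein genes rose for 9 of 34 in AsPC-1 and 0 in Capan-1 and fell for 4 and 8. The 9 rises in AsPC-1 were no excess over the 29.3% of all genes that rose there. Differences of the ribosomal genes were 11 higher and 1 lower (2 and 0 as labelled). With median-ratio scaling the AsPC-1 direction of the ribosomal genes turned, with 4 up and 9 down, and the differences were 7 higher and 4 lower. Lysosome genes rose for 5 of 30 in AsPC-1 and 6 in Capan-1 and fell for 8 and 4, with 4 higher and 7 lower (1 and 3 as labelled); the AsPC-1 counts were 2 up and 9 down with median-ratio scaling. YAP targets rose for 5 of 15 and 4 and fell for 2 in each, with 3 higher and 2 lower (0 and 1 as labelled). The lysosome and YAP counts stand beside 20.4% higher and 15.2% lower differences over all genes. In AsPC-1 29.3% of all genes rose and 18.8% fell, and in Capan-1 23.3% and 18.5%. The rose and fell counts of the hypoxia, S100, O-glycan, glycosphingolipid and B3GNT and B4GALT lists are read beside these shares.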

How the data were processed

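RNA was sequenced in 15 libraries, 12 of which enter here, grouped by their labels. The authors deposited FPKM for 25503 genes; per the submitters' processing notes the tools named are Bowtie2, RSEM 1.3.1 and DESeq2 1.4.5, with no role given, on GRCh38. No source used here names the annotation. FPKM hold no read totals, so the depth per library is unknown and precision rests on the number of libraries.

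From the deposited FPKM, log2(FPKM + 1) was fitted with limma 3.58.1 (R 4.3.3; one mean per group, intensity trend, the 2 lines in 1 fit) for genes of at least 1 FPKM in at least 3 libraries, with Benjamini-Hochberg adjustment over all genes tested, two-sided, and a threshold of 0.05. The fit was made as labelled and with AsPC-1 siB3GNT3 replicate 3 set apart. On this scale the change of low genes is understated. The script was tested on simulated data. Promoters came from RefSeq and positions from GENCODE, both GRCh38; figures used Python 3.11.15 and matplotlib 3.10.9.

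The members, lists and tests were chosen with earlier results of these data known. Named genes were B3GNT3, B4GALT5, class I chains, the largest differences of each class and up to 4 genes per list with the smallest p for the difference, with a mean of at least 5 FPKM in a group outside the lists. MX1, MX2 and TRIM22 were added after their values were seen. Some genes that the rule names are not reported here. Of 692 list symbols 684 were found. Alternatives were other pseudocounts, filters, scalings and weights, a replicate block, each line fitted apart, the siB4GALT5 libraries added, and each library left out. The siB4GALT5 libraries were otherwise left out.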

Additional observations from a re-analysis of the deposited data

Results flagged for a closer look

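The response differed between the lines, by limma's test of the difference itself, for 1022 genes as labelled and for 4316 with AsPC-1 siB3GNT3 replicate 3 set apart. Of the 140 genes described, 60 had a difference called as labelled and 125 with replicate 3 set apart. Many were chosen for a large difference or a small p, so these counts reflect that choice. Over all genes the shares called were 8.42% and 35.6%. The classes named below are those of the fit with replicate 3 set apart, since as labelled the AsPC-1 response was called for 0 genes. Among the opposite responses listed, FN1 and COL1A1 were low in AsPC-1 and BTG2 was low in Capan-1. The differences in log2(FPKM + 1), AsPC-1 minus Capan-1, with all 12 libraries were as follows. Opposite responses, up in AsPC-1 and down in Capan-1, gave the values 2.91 for KRT17, 2.12 for PPP1R14B, 1.93 for CALB2, 1.86 for YRDC, 1.65 for LAMB3, 1.65 for GOLGA2, 1.6 for KRT15, 1.57 for TAX1BP1, 1.51 for KIF1C, 1.49 for KRT80, 1.36 for BTG2, 0.84 for ULBP2, 0.75 for MUC13, 0.72 for KRT18, 0.6 for BECN1, 0.6 for ULBP3 and 2.13 for SLC39A14. Opposite responses the other way, lower in AsPC-1, gave -1.25 for FN1, -1.21 for ACSL1, -1.09 for HOXA-AS2, -1.04 for HOXB4, -1.03 for SAMHD1, -1.01 for FERMT2, -0.88 for COL1A1, -0.86 for ACSL4, -0.85 for RAB8B, -0.54 for TGFBI and -0.53 for GALNT7. Genes called in Capan-1 alone and expressed in both lines gave -1.92 for SOCS1, -1.19 for ADM, -1.02 for ZEB1, -0.5 for ADAR, -0.36 for TAP2, 0.97 for S100A2, 0.92 for PFKFB3, 0.86 for E2F1, 0.65 for B4GALT6, 0.57 for LUM and 0.41 for CALR. NLRC5, called up in both lines, gave -0.63. Genes silent or low in AsPC-1 gave -2.24 for C11orf96, -1.83 for CYP24A1, -1.54 for IL6, -1.48 for PTGS2, -1.44 for FGA, -1.08 for IDO1, -0.91 for STC2, -0.77 for FOXA2, -0.66 for PHGDH, -0.65 for CD14, -0.57 for HLA-DRA, -0.57 for MUC16, 1.17 for CST1, 1.04 for ANXA10, 0.91 for CST4, 0.84 for KRT4, 0.8 for ADH1C, -1.35 for MX1, -1.36 for MX2 and -0.96 for TRIM22. For genes silent in AsPC-1 these values restate the Capan-1 response. No cause was tested.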

How the results depend on the processing

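As labelled, the 1022 differing genes became 497 with a replicate block, 6773 with array weights and 157 with a 2-fold threshold, and ranged from 501 to 4316 when each library was left out. The AsPC-1 response as labelled was called for 13 genes with no filter, 7636 with array weights and 0 to 5833 with a library left out. The Capan-1 response as labelled gave 6874 with array weights, 201 at 2-fold and 1780 to 5062. With AsPC-1 siB3GNT3 replicate 3 set apart, 4316 differing genes became 6560 with array weights, 402 at 2-fold, 3114 with the replicate block and 3027 to 5730 with a further library left out; the AsPC-1 and Capan-1 responses gave 429 and 214 at 2-fold. Correlations of deviations between same-numbered libraries were -0.0371 to 0.0419, so no pairing by number was seen. These deviations included the doubted library, whose distance from its group could hide a small shared effect. By class, array weights gave 5571 genes expressed in both lines (2592 to 4929 with a library left out). Genes silent in AsPC-1 were 325 with silence under 0.5 FPKM, 86 with expression from 5 FPKM, 139 with the block and 134 to 257, with 134 reached without AsPC-1 siB3GNT3 replicate 2; those silent in Capan-1 were 128 and 23 with the same bounds, and 41 to 55. Opposite genes up in AsPC-1 were 732 with array weights and 241 to 611; those down in AsPC-1 were 103 from 5 FPKM, 108 with the block, 423 with array weights and 111 to 341. Genes alike were 953 from 5 FPKM and 1193 to 1653. The cause was not tested.

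Differences of named genes that changed sign were, as labelled, 0.633 for B3GNT3, -0.145 for DDIT3, -0.276 for TRIB3, -0.168 for ATF3, -0.214 for XAF1 and -0.093 for HLA-B. With median-ratio scaling B4GALT5 gave -0.033. With a pseudocount of 0.1 MX2 gave 0.35 and TRIM22 0.06. With each library left out, SESN2 ranged from -0.654 to 0.262, FKBP1A from -0.062 to 0.348 and UBL4A from -0.037 to 0.28. The unknown depth limits what can be said of genes near 1 FPKM.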
